A study of Homo sapiens with 20 samples.

Results

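The stratified-epithelium keratins described here are KRT1, KRT4, KRT5, KRT6A, KRT10, KRT13, KRT14, KRT15, KRT16 and KRT17, chosen by symbol and matched to Ensembl identifiers. They are 10 genes beside a total of 31155 identifiers listed in at least 1 of 5 tables of normalized read counts, and 7 of the 10 had a row in a table. RNA-seq covered 20 libraries, 2 replicates in each of 10 groups, all from the human embryonic stem cell (hESC) line H1, an established line. The groups were unmodified hESC, unmodified cells at day 3 of surface epithelium differentiation (SE D3), cells with a short hairpin RNA against FOXO4 or against SP6 at day 3 and at day 7, and cells with a scramble hairpin for each of these 4 groups. All groups other than hESC were under SE differentiation. FOXO4 is a forkhead transcription factor, and SP6 belongs to the zinc finger factors of the SP family. The labels name the 1 line and do not say whether replicates were separate cultures, so the p-values rest on a spread that may be technical.

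Keratins form the intermediate filaments of epithelial cells, and a filament pairs a type I with a type II keratin. The basal layer of stratified epithelia is known for the pair KRT5 and KRT14 together with KRT15. Cells that leave it make KRT1 and KRT10 in the epidermis or KRT4 and KRT13 in the mouth and oesophagus, and KRT6A, KRT16 and KRT17 are known from hair follicles and from wounded or hyperproliferative skin. Single-layered epithelia, and the surface ectoderm before it stratifies, use KRT8, KRT18, KRT19 and KRT7 instead.

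The promoters of KRT10 and KRT5 are shown because KRT10 was above the expression limit in every group and KRT5 in the 2 groups of a single table. They run 5′ to 3′ on the minus strand, from 250 bases before to 50 bases after the gene start, from RefSeq on GRCh38.p14, and the promoter table used here held 3 of the 10 members. The capitals mark matches to the motifs searched on both strands. The TATA box was searched as the letters TATAAA, the forkhead motif of FOXO factors was searched as GTAAACA, the GC box of SP factors was searched as GGGCGG, their GT box was searched as CCACCC, and the motif of AP-2 factors was searched as GCCNNNGGC. The matches do not overlap each other.
KRT10 (chr17:40822565-40822864): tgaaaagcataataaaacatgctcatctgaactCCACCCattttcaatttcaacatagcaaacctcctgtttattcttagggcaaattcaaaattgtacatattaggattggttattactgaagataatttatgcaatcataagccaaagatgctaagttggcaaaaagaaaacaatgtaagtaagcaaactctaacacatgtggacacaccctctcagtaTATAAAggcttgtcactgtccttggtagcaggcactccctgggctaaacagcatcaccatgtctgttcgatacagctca
KRT5 (chr12:52520345-52520644): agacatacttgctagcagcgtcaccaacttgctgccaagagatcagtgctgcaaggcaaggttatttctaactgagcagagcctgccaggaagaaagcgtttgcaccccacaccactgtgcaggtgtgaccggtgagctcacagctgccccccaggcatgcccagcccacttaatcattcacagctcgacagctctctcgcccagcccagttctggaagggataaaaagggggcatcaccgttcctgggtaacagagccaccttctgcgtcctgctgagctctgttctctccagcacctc
KRT10 held TATAAA at -29, a motif in 12% of 27305 promoters of the same length, and CCACCC at -217, in 33.4% of them. Neither KRT10 nor KRT5 held GTAAACA, found in 3.41% of promoters, or GGGCGG, found in 44.6%. The KRT10 window had 37.7% G and C and the KRT5 window 56.3%, beside a median of 58.3% over all promoters.

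Between 14937104 and 30328846 reads per library stood behind the values, and the 5 tables were each scaled on their own 4 libraries, so levels were compared only within a table, and effects in different tables only as differences of within-table changes. A keratin was called expressed in a group when both libraries held at least 10 normalized counts, and trace when a library was above 0 without reaching this. FOXO4 changed by -2.6 and -4.92 on the log2 scale in the shFOXO4 cells at day 3 and day 7, and SP6 changed by -2.86 and -5.29 in the shSP6 cells (limma, adjusted p from 4.7e-09 to 2.35e-07 for SP6 and 1.18e-32 and 1.03e-08 for FOXO4). In the shFOXO4 cells SP6 changed as well, by -1.55 and -3.37 (limma, adjusted p = 6.69e-23 and 3.08e-09). In the shSP6 cells FOXO4 changed by -0.06 at day 3 (limma, adjusted p = 0.571) and by -2.49 at day 7 (adjusted p = 2.46e-07). The share of mitochondrially encoded counts was 8.42% to 9.05% in the shFOXO4 day 7 table and 1.45% to 3.85% in the other libraries. The basal epithelial markers KRT5 and KRT14 were at 0 in SE D3, while the basal regulator TP63 stood at 89.5 and 88.8 normalized counts there.

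Of 100 pairs of a keratin and a group, 18 were expressed. KRT10 was expressed in 10 groups, KRT15 in 5, KRT5 in 2 and KRT14 in 1, and KRT6A, KRT16 and KRT17 did not pass the limit in both libraries of any group. KRT1, KRT4 and KRT13, the partners of the differentiated layers other than KRT10, had no row in any table. The tables of the shFOXO4 day 3 and of both shSP6 comparisons listed no gene under 3 reads over their 4 libraries, whereas the other 2 tables also held rows at 0. A gene without a row is therefore given here as having no row and not as 0. In unmodified cells at day 3 the expressed members were KRT10 and KRT15. At day 7, the scramble cells of FOXO4 had KRT10 and KRT5 above the limit and those of SP6 had KRT10 and KRT15. In bulk RNA, fewer cells that make a keratin and less of it per cell cannot be told apart.

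**Figure D1:**
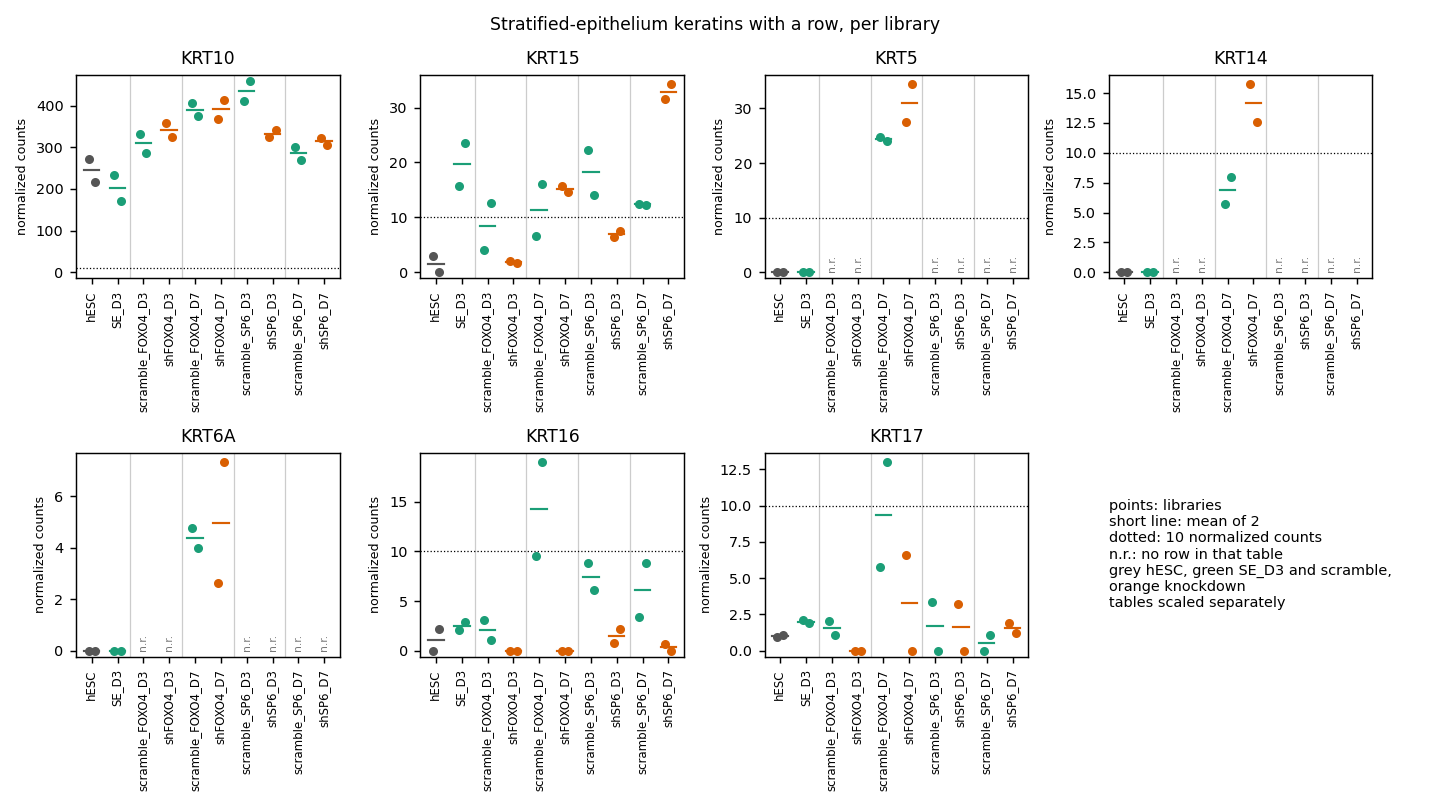
Normalized counts of the 7 keratins with a row, by group; points are single libraries, short lines their mean, the dotted line marks 10 normalized counts, and grey lines separate the 5 tables. KRT10 is at 171 or above in all 20 libraries, KRT15 lies between 0 and 34.3, and KRT5, KRT14 and KRT6A are above 0 in the shFOXO4 day 7 table alone among the tables that list them.

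Normalized counts per kb of exon put the members beside the keratins of simple epithelium. The exon length joined the exons of all annotated transcripts of a gene, 7069 bases for KRT15 and 2144 for KRT10. Values per kb are too low where this length exceeds that of the transcript made, so the order of the genes is approximate. In SE D3, KRT8 had a mean of 9035 per kb, KRT19 7104, KRT7 2040 and KRT18 1479. KRT10 followed at 94.4 per kb and KRT15 at 2.79 per kb, and KRT16 (0.998) and KRT17 (0.638) were lower still. The members together made up 0.175% to 2.25% of all keratin counts in a library, and KRT8, KRT18, KRT19 and KRT7 made up 97.7% to 99.2%. KRT10 alone accounted for 81.7% to 99.5% of the members' counts.

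**Figure D2:**
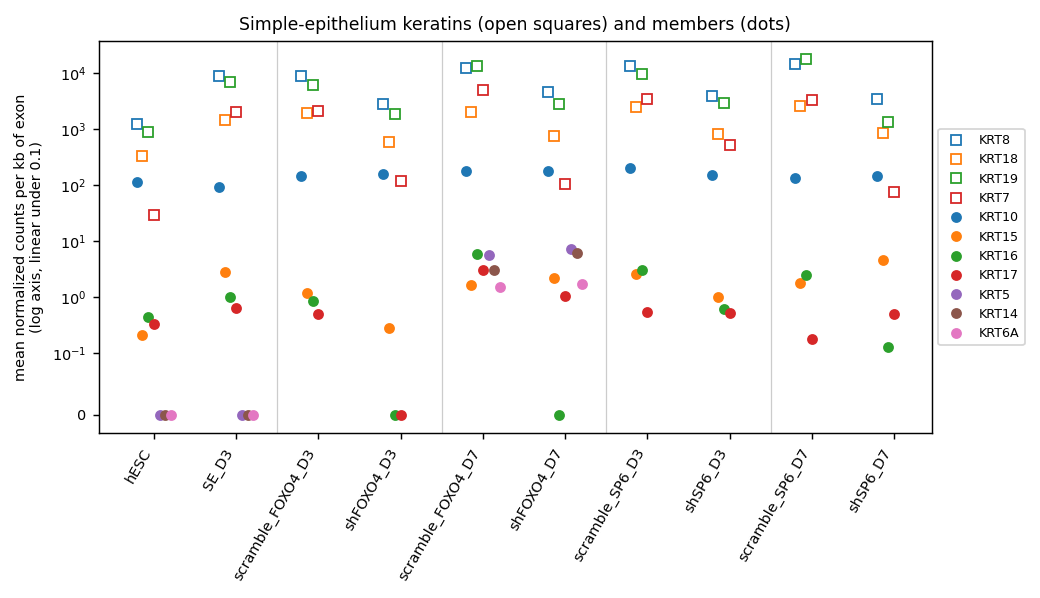
Mean normalized counts per kb of exon (log axis, linear under 0.1) of simple-epithelium keratins (open squares) and of the members (dots) in each group. KRT10 keeps between 94.4 and 203 per kb, and the other members stay at or under 7.23 per kb.

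The members' share of keratin counts was higher in hESC (2.25% and 1.81%) than in SE D3 (0.265% and 0.223%). It was also higher in each knockdown than in its scramble cells, with 1.3% and 1.23% against 0.358% and 0.331% for shFOXO4 at day 3, 1.02% and 1.16% against 0.322% and 0.304% at day 7, 0.941% and 0.829% against 0.303% and 0.362% for shSP6 at day 3, and 1.15% and 1.13% against 0.176% and 0.185% at day 7. The libraries did not overlap in any of the 5 comparisons, but an exact permutation test of 2 against 2 cannot go below p = 0.33. The denominator moved with the groups. KRT8 rose by 2.85 ± 0.04 (SE) on the log2 scale from hESC to SE D3 and fell in each knockdown, by a log2 change of -1.67 and -1.43 with shFOXO4 and of -1.81 and -2.08 with shSP6 at day 3 and day 7 (limma, adjusted p at most 6.8e-08). KRT7 changed in the same directions, with log2 changes of 6.13 from hESC to SE D3 and of -4.18, -5.57, -2.73 and -5.45 in the knockdowns (adjusted p at most 6.23e-08).

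KRT10, the type I keratin of suprabasal epidermis, held 272 and 218 normalized counts in hESC and 234 and 171 in SE D3. The SE D3 libraries overlapped those of hESC, and the log2 change of -0.28 ± 0.16 did not pass (limma, adjusted p = 0.12), with a 95% interval of -0.62 to 0.05. With the first SE D3 library left out the change was -0.51 and passed (adjusted p = 0.0456). In the shFOXO4 table of day 3 KRT10 held 333 and 287 in scramble and 358 and 324 in knockdown cells. These groups overlapped, and the change was 0.14 ± 0.09 (95% interval -0.05 to 0.33, adjusted p = 0.197). At day 7 it held 406 and 375 in scramble against 368 and 414 in knockdown cells. The knockdown values lay on either side of the scramble values, with a change of 0.00 ± 0.11 (95% interval -0.25 to 0.25, adjusted p = 0.998).

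With SP6 knocked down KRT10 was lower at day 3. It held 412 and 460.1 normalized counts in scramble and 325 and 340.3 in shSP6 cells, and both knockdown libraries lay below both scramble libraries. The change of -0.39 ± 0.10 (SE, 2 against 2) passed (limma, adjusted p = 0.00648). Without the first shSP6 library it was -0.35 and no longer passed (adjusted p = 0.0581). In the same shSP6 libraries the 5 amnion markers summed to 5016 to 6078 normalized counts against 20982 to 28283 in scramble cells, and the 5 pluripotency markers to 95976 to 99707 against 65679 to 76269. The endothelial list, of which 2 of 3 genes had a row, summed to 3464 to 3723 against 819.7 to 889.9. In unmodified cells the same genes summed to 5549 to 5653 in hESC and 1499 to 1661 in SE D3. The part of these markers in the values of KRT10 and KRT15 at day 3 was not tested. At day 7 KRT10 held 300.5 and 270 in scramble and 323 and 306 in shSP6 cells, which were both above the scramble cells, and the change of 0.14 ± 0.13 did not pass (95% interval -0.14 to 0.42, adjusted p = 0.361). The difference between the effects at day 7 and day 3 was 0.53 ± 0.15 and passed (limma over 8 libraries, adjusted p = 0.0191). This interaction passed in 4 of the 8 fits that left out a library, and was at an adjusted p of 0.0534 to 0.0808 in the others. At day 3 the effect of shSP6 was below that of shFOXO4 by -0.53 ± 0.14 (adjusted p = 0.00831, beside 36.8% of all genes called), with adjusted p of 0.0532 without the second scramble library and 0.0503 without the first knockdown library of the shFOXO4 table. KRT10 overlaps the gene KRT10-AS1 on the opposite strand. The kit was stranded, but whether the counting used strand is not stated. KRT10-AS1 itself changed by 0.00 with shSP6 at day 3 (adjusted p = 0.991) and rose by 0.82 with shFOXO4 at day 7 (adjusted p = 0.00943), where KRT10 did not pass.

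KRT15, a type I keratin of basal and stem-like cells in stratified epithelia, was at trace level in hESC and expressed in SE D3. It held 2.89 and 0 normalized counts in hESC, 3 reads in all, and 15.8 and 23.6 in SE D3, 40 reads in all. Both SE D3 libraries lay above both hESC libraries. The ratio was 13-fold, with an exact 95% interval of 4.15 to 65.8 that covers counting error only, and the log2 change on the value + 1 scale was 3.37 ± 0.67 (limma, adjusted p = 0.000531). Its mean over the 4 libraries, 10.6, reached the filter of 10 through SE D3 alone, so a gene that entered the test this way had to differ. KRT15 was 1 of 2 members tested, and 72.2% of all 16217 genes tested were called in this comparison, so a call was the usual outcome there. Without the second SE D3 library the mean of KRT15 fell below the filter of 10 and it was not tested.

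With shSP6, the changes of KRT15 had opposite signs at the 2 days. At day 3 it held 22.2 and 14.2 in scramble against 6.47 and 7.59 in shSP6 cells, a change of -1.23 ± 0.40 (limma, adjusted p = 0.0225). There too it reached the filter through the higher group alone, with means of 18.2 in scramble and 7.03 in shSP6 cells. At day 7 it held 12.5 and 12.2 in scramble against 31.5 and 34.3 in shSP6 cells, a change of 1.34 ± 0.33 (adjusted p = 0.00542), and both groups had means above 10. The groups did not overlap on either day. In the shSP6 cells at day 7 the neural marker list summed to 14540 to 15356 normalized counts against 6642 to 6851 in scramble cells, with 2 against 3 of its 4 genes expressed. The mesenchymal list summed to 53125 to 57567 against 29098 to 33034, with 3 against 6 of 6 genes expressed and LUM at 0 in the knockdown. The endothelial list, of which 2 of 3 genes had a row, summed to 6968 to 7601 against 897 to 1226, and the pluripotency list to 109281 to 110617 against 72010 to 85555. The part of these markers in the KRT15 values was not tested. The difference between the effects was 2.57 ± 0.49 (limma, adjusted p = 0.00192). It includes the day 3 effect, for which KRT15 reached the filter through scramble alone and so had to differ. KRT10 and KRT15 were both called at day 3 and KRT15 alone at day 7, of 2 members tested on each day, beside 55.8% of all genes at day 3 and 58.6% at day 7. Both members were called for the difference between days, beside 35.1% of all genes. DESeq2 on whole reads gave KRT15 an adjusted p of 0.145 at day 3 and 0.0514 at day 7. The adjusted p was 0.076 without the first shSP6 library at day 3 and 0.059 without the second at day 7. Without the first scramble library at day 3 the mean of KRT15 fell below 10, and neither that change nor the difference between days was tested.

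With shFOXO4, KRT15 held 4.09 and 12.6 in scramble against 2.13 and 1.73 in knockdown cells at day 3. Its mean there lay below 10, so it was outside the test, and KRT10 was the 1 member tested. limma called no member, beside 62.7% of all genes, and the count was also 0 at an unadjusted p under 0.05 and by edgeR and DESeq2 on whole reads. With no filter beyond a mean above 0, KRT15 was called at -1.51 (limma, adjusted p = 0.0496) and by edgeR at -2.06 (adjusted p = 0.018). At day 7 it held 6.69 and 16 in scramble against 15.8 and 14.6 in knockdown cells. These groups overlapped and the change of 0.50 ± 0.49 did not pass (95% interval -0.60 to 1.60, adjusted p = 0.374). The effects of shSP6 and shFOXO4 on KRT15 at day 7 differed by 0.84 ± 0.60, which did not pass (limma, adjusted p = 0.27). Neither of the 2 members tested was called for that difference, beside 49% of all genes.

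**Figure D3:**
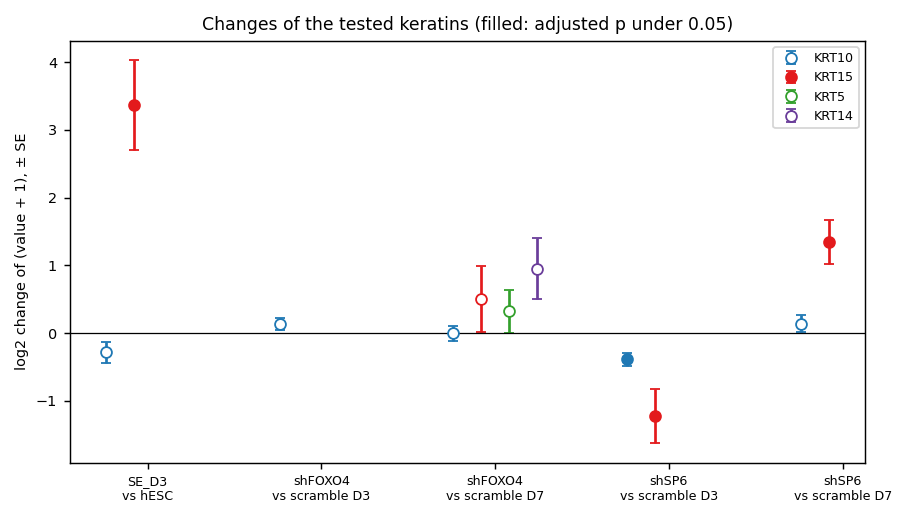
Log2 change of (value + 1) with its standard error for the 4 keratins that reached the filter, in the 5 comparisons; filled points have an adjusted p under 0.05. KRT15 is at 3.37 from hESC to SE D3, at -1.23 with shSP6 at day 3 and at 1.34 at day 7, and KRT10 lies between -0.39 and 0.14.

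KRT5 and KRT14, the basal pair, were at 0 in all 4 libraries of hESC and SE D3, among 31640628 and 33007807 reads over the groups. They had no row in the tables of shFOXO4 at day 3 and of shSP6 at either day. In the shFOXO4 table of day 7, KRT5, the type II partner, held 24.8 and 24 normalized counts in scramble and 27.6 and 34.5 in knockdown cells. Both knockdown libraries were higher, but the change of 0.33 ± 0.32 did not pass (95% interval -0.39 to 1.04, adjusted p = 0.376). KRT14, the type I partner, held 5.73 and 8.0 in scramble and 15.8 and 12.5 in knockdown cells. The scramble and knockdown libraries did not overlap, and the change of 0.95 ± 0.45 did not pass either (limma, adjusted p = 0.0847). KRT14 reached the filter through the knockdown group alone. None of the 4 members tested in that comparison was called, beside 72.6% of all genes. At an unadjusted p under 0.05 the count was also 0, and edgeR and DESeq2 on whole reads called 0. The log2 ratio of KRT5 to KRT14 was 0.81 and 1.46 in the knockdown libraries. TP63 held 509 and 422 in these scramble cells and 17.1 and 11.5 in the knockdown cells, a log2 change of -4.95 (limma, adjusted p = 1.89e-07).

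KRT6A, KRT16 and KRT17, the keratins of hair follicles and of activated skin, stayed below the filter, and the values that follow are described without a main test. KRT6A was at 0 in hESC and SE D3 and held 4.78 and 4.00 in scramble against 2.63 and 7.32 in shFOXO4 cells at day 7. Of its 50-base stretches, 32.1% also occur in other genes, most in KRT6C. KRT17 reached at most 13.0 normalized counts, in 1 scramble library of that table. It was at 0 in both shFOXO4 libraries of day 3, against 2.05 and 1.05 in scramble cells, 3 reads in all. At day 7 it held 5.73 and 13.0 in scramble against 6.57 and 0 in shFOXO4 cells, and these groups overlapped. In hESC, SE D3 and the groups of the shSP6 comparisons KRT17 held at most 4 reads over a group.

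KRT16 was lower in each knockdown than in its scramble cells. It held 9.55 and 19.0 in scramble cells of FOXO4 at day 7 and 0 in both knockdown libraries, at least 8.11-fold higher in scramble against a floor of 3 reads over the group. At day 3 the scramble cells held 3.07 and 1.05 and the shFOXO4 cells 0 in both libraries, on 4 reads in all. The shSP6 cells held 0.808 and 2.17 at day 3 against 8.87 and 6.07, a ratio of 5.33 (exact 95% interval 1.49 to 28.9), and 0.630 and 0 at day 7 against 3.42 and 8.85, a ratio of 14.8 (2.16 to 638). In none of these 4 comparisons did the groups overlap, but no share of all genes without overlap stands beside this. The reads were 29 in scramble and 0 in knockdown cells for shFOXO4 at day 7. For shSP6 they were 14 and 3 at day 3 and 11 and 1 at day 7. With no filter beyond a mean above 0, limma called KRT16 at an adjusted p of 0.00242 for shFOXO4 at day 7, 0.0269 for shSP6 at day 3 and 0.0273 for shSP6 at day 7, but not for shFOXO4 at day 3 (0.104). edgeR gave 9.08e-06, 0.0239, 0.0248 and 0.0986. In this setting limma called 12690 of 27831 genes for shFOXO4 at day 7 and 10025 of 24118 at day 3. For shSP6 it called 9407 of 25641 genes at day 3 and 10327 of 27020 at day 7.

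KRT16 shares 16.5% of its 50-base stretches with other genes, chiefly the copies KRT16P3 and KRT16P1 and KRT14, so its reads and theirs may have been split in counting. The KRT16P copies together were higher than KRT16 in every library. Their sum was 112 and 69.9 in SE D3 against 11.6 and 9.75 in hESC, and it was 75.5 and 59.97 in scramble against 11.8 and 14.6 in shFOXO4 cells at day 7. With shSP6 it was 151 and 119 in scramble against 16.2 and 23.8 in knockdown cells at day 3. At day 7 it was 93.4 and 34.3 in scramble against 100.2 and 127 in knockdown cells, the one knockdown comparison in which KRT16 was lower and its copies were not. KRT16P1 fell by 2.82 with shSP6 at day 3 (adjusted p = 1.37e-05) and rose by 1.33 at day 7 (adjusted p = 0.0211), and the difference of 4.15 ± 0.60 passed (limma, adjusted p = 0.000278). KRT15 took the same directions on these days.

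**Figure D4:**
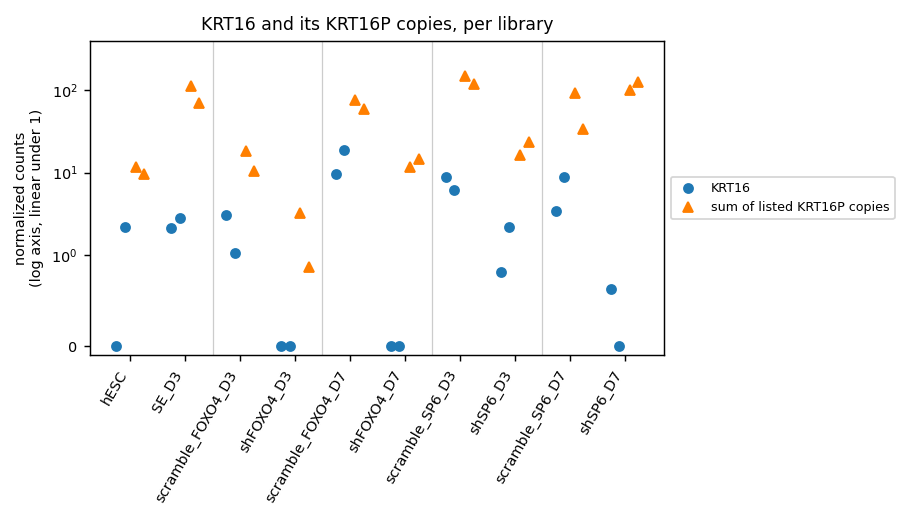
Normalized counts (log axis, linear under 1) of KRT16 (dots) and of the summed KRT16P copies (triangles) in each library. KRT16 is at 0 in all 4 shFOXO4 libraries and at most 19.0 elsewhere, and the copies reach 151 in the scramble cells of SP6 at day 3.

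Other keratins, and other genes of stratified epithelium, were read beside the members from lists. The list of other keratins took every other KRT symbol, with KRT8, KRT18, KRT19 and KRT7 of simple epithelium among those tested. The counts that follow stand beside the shares of all genes called in either direction, which were 72.2% from hESC to SE D3, 62.7% and 72.6% with shFOXO4 at day 3 and day 7, and 55.8% and 58.6% with shSP6. Of the other keratins, 6 of 6 tested rose from hESC to SE D3, with a median of 4.41 beside -0.02 for all genes, and 6 of 6 fell with shFOXO4 on each day, 7 of 7 with shSP6 at day 3 and 6 of 6 at day 7. The other genes of the 19 listed were not tested, such as KRT81 (means 1.11 in scramble, 8.68 in shSP6 cells at day 7). KRT80 (means 1.08 in hESC, 449 in SE D3) and KRT23 (0 and 56.7) reached the filter through SE D3 alone, so they had to differ. KRT23 reached it through scramble alone with shSP6 at day 7 (1308 against 0.928). So did KRT40 with shSP6 at day 3 (23.3 against 5.26) and KRT23 with shFOXO4 at day 3 (57.6 against 7.27). KRT80, an epithelial keratin, went from 0 and 2.17 to 449 and 449.6 (log2 change 7.98, adjusted p = 3.06e-09).

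Of 17 tested regulators of stratified epithelium, 13 rose and 3 fell from hESC to SE D3 (median 2.25). GATA3, a zinc finger factor, rose by 10.1 on the log2 scale and TFAP2A, the AP-2 factor of surface ectoderm, by 9.89. GRHL3, a grainyhead factor of the epidermal barrier, rose by 7.68. GATA3, TFAP2A and TP63 reached the filter through SE D3 alone (hESC means 3.67, 5.06 and 0), so they had to differ. Of 17 tested in each knockdown, 11 fell and 3 rose with shFOXO4 at day 3, 10 fell and 5 rose at day 7, 13 fell and 3 rose with shSP6 at day 3, and 14 fell and 2 rose at day 7. TFAP2A fell by 9.09 with shSP6 at day 7, from 5040 and 3857 to 8.2 and 6.12 normalized counts. In that comparison TFAP2A and TP63 reached the filter through scramble alone (shSP6 means 7.16 and 1.24), so they had to differ. The same held for TP63 with shFOXO4 at day 3 (knockdown mean 2.26). The amnion marker list summed to 14810 to 17089 normalized counts in SE D3 and 205 to 233 in hESC, with 5 against 2 of its 5 genes expressed. At day 7 it summed to 33193 to 33757 in scramble against 1218 to 1298 in shFOXO4 cells and 10601 to 17133 against 1677 to 1703 in shSP6 cells. The 5 pluripotency markers summed to 104630 to 105567 in hESC against 66602 to 69937 in SE D3, and to 109527 to 119559 in shFOXO4 cells at day 7 against 33278 to 39094 in scramble cells. The part of these markers in the changes was not tested.

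Genes that anchor basal cells to the matrix were called in both directions. Of 12 tested, 1 rose and 4 fell from hESC to SE D3 (median -0.07 beside -0.02 for all genes), and the other 7 were not called, beside 72.2% of all genes called. ITGB4, the hemidesmosome integrin, fell by 1.98 from 251 and 237 to 57.9 and 64.2, and FERMT1, an integrin activator, rose by 1.40. With shFOXO4 2 rose and 8 fell at day 3 and 4 rose and 6 fell at day 7. With shSP6 6 rose and 4 fell at day 3 and 5 rose and 3 fell at day 7, and COL7A1, the anchoring fibril collagen, rose by 0.91 and 1.84 on these days (limma, adjusted p = 1.56e-06 and 1.48e-06). For the desmosome list, 4 of 5 tested rose and 1 fell from hESC to SE D3. With shFOXO4 5 of 5 fell at day 3 and 4 of 6 fell and 1 rose at day 7, and with shSP6 4 of 5 fell at day 3 and 4 of 6 fell and 1 rose at day 7. DSP, the desmosomal plaque protein, rose by 1.71 to SE D3, and its log2 changes in the knockdowns were -2.63, -4.09, -2.12 and -3.7.

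Of 24 genes of the cornified envelope and late differentiation, 6 were tested from hESC to SE D3, of which 2 rose and 2 fell. With shFOXO4 1 rose and 4 fell of 6 at day 3 and 3 rose and 2 fell of 7 at day 7, and with shSP6 1 rose and 3 fell of 7 at day 3 and 4 rose and 3 fell of 8 at day 7. TGM1, the transglutaminase that crosslinks the envelope, rose by 3.04 from 20.2 and 22.7 to 192 and 176, and fell by 3.5 with shFOXO4 at day 7 and by 2.48 and 3.01 with shSP6 at day 3 and day 7 (limma, adjusted p at most 1.68e-06). PPL, a plaque protein, rose by 0.39 and fell by 1.10 and 0.42 with shFOXO4 at day 3 and day 7. SFN, an epithelial 14-3-3 protein, rose by 0.68 with shFOXO4 and by 1.2 with shSP6 at day 7.

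By the likeness of log2 changes across tables, the nearest genes to KRT10 among 12509 were CEP57L1, PMS2CL and DNM1L, with root mean square differences of 0.07, 0.09 and 0.10 over 5 tables. KRT15 had no gene as near. Its closest among 12544 were NTS, TSPEAR and CCDC60, at 0.51, 0.53 and 0.60 over 4 tables.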

How the data were processed

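RNA-seq of 20 libraries was analysed from 5 tables of 4 libraries. The deposited values are normalized counts on a signal scale, made by the authors and scaled within each table. The tools in the submitters' processing notes were DESeq2 1.20.0, RSEM 1.3.0, STAR 2.6.1 and Trimmomatic 0.39, and the build was hg19. The day of a knockdown column came from the name of its table. Whole reads were recovered from the step of 1 read (100% of values whole within 0.001 read). A chi-square per degree of freedom of 1.78 to 7.99 separated the replicates of each group, so none was counted as a repeat of another.

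Tests used limma 3.58.1 under R 4.3.3 (moderated, trended, two-sided) on log2(value + 1) of genes whose mean over the 4 libraries reached 10, with Benjamini-Hochberg adjustment over all genes tested and a threshold of 0.05. Such log2 changes understate those of low genes. Differences between effects were contrasts of within-table changes over the 8 libraries of both tables. edgeR 4.0.16 and DESeq2 1.42.0 were run on the recovered reads as alternatives. Intervals and floors (3 reads over a group) cover counting error only. Shared 50-base stretches and exon lengths came from GENCODE transcripts of GRCh38, another build than the authors', and symbols from the same reference (29758 of 31155 identifiers).

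Named genes were the members, FOXO4, SP6, TP63, copies of the keratins, up to 3 called list genes per comparison with a mean of at least 100, and the 3 nearest genes of KRT10 and KRT15. KRT80, KRT8, KRT7 and KRT10-AS1 were added as context where the text uses them. The members and lists were chosen with earlier results of these data known.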

Additional observations from a re-analysis of the deposited data

Results flagged for a closer look

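For KRT10 the effect of shSP6 at day 7 differed from that at day 3 by 0.53 on the log2 scale (limma, adjusted p = 0.0191). Whether this difference passed depended on which library was left out. For KRT15 the same difference was 2.57 (limma, adjusted p = 0.00192), and its effects had opposite signs on the 2 days. KRT15 reached the filter at day 3 through scramble alone, so its effect there had to differ from 0. DESeq2 on whole reads did not call its effect on either day. Both differences between days stand beside 35.1% of all genes called. For KRT10 at day 3 the effect of shSP6 differed from that of shFOXO4 by -0.53 (limma, adjusted p = 0.00831), beside 36.8% of all genes called. This difference too did not pass in every fit that left out a library. These 3 results were picked out because a test of the difference between 2 groups' effects passed.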

How the results depend on the processing

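Most members lie at or below the filter of 10, so the counts of called members move with it. With a mean of at least 50, 0 were called from hESC to SE D3 and 0 with shSP6 at day 7, and 1 with shSP6 at day 3 and 1 for the difference between its effects at the 2 days. Of all genes, 9844 of 12728 were called there from hESC to SE D3 and 8691 of 13575 with shSP6 at day 7. For shSP6 at day 3 it was 7999 of 12940, and for the difference 5124 of 12541. With no filter beyond a mean above 0, limma and edgeR each called 1 with shFOXO4 at day 3, 1 with shFOXO4 at day 7, 3 with shSP6 at day 3 (in place of 2) and 2 with shSP6 at day 7 (the edgeR setting was chosen after seeing the data). Of all genes, limma called 10025 of 24118 with shFOXO4 at day 3 and 12690 of 27831 at day 7. With shSP6 it called 9407 of 25641 and 10327 of 27020 on these days. Among the same genes edgeR called 10391 and 13230 with shFOXO4 and 9952 and 10866 with shSP6. With an absolute log2 change of at least 1 the count was 1 with shSP6 at day 3, 1 for its difference between days and 0 for shSP6 minus shFOXO4 at day 3. Of all genes it was 2676 of 16548, 1819 of 15992 and 1090 of 15476. DESeq2 on whole reads called 1 with shSP6 at day 3 and 0 at day 7, and 1 fit over all 20 libraries called 1 with shSP6 at day 3. Of all genes, DESeq2 called 7021 of 16548 and 8510 of 17535, and the fit over all libraries 8920 of 16548. Leaving out a library gave 0 to 1 from hESC to SE D3, 0 to 2 with shSP6 at day 3, 0 to 1 with shSP6 at day 7, 1 to 2 for its difference between days and 0 to 1 for shSP6 minus shFOXO4 at day 3. Where an arm was left with 1 library, it was assumed to vary like the other groups.

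Counting a keratin as expressed from 1 normalized count in both libraries gave 34 pairs of a keratin and a group in place of 18, and from 50 gave 10. From replicate 2 alone the count was 22 and from replicate 1 alone 18. Of the single keratins, no called change reversed its sign under the alternatives run.

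With the replicate number as a block, 2 members were called from hESC to SE D3, since KRT10 passed (adjusted p = 0.0314), and no other count of called members changed. The labels do not pair the samples, and deviations of same-numbered libraries correlated at -0.0503 to 0.0593 per table, with 2 pairs in each, so the samples share only a number.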

Other observations

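KRT5 was alone in one respect. Of 14003 rows with all 4 libraries of the shFOXO4 day 7 table at 10 or more normalized counts, 1 was at 0 in all libraries of hESC and SE D3 and had no row in the other 3 tables, and that row was KRT5. This count was made after the values of KRT5 were seen and was shaped on them, so it describes these tables and tests nothing.

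KRT23, another type I keratin outside the set, went from 1556 and 1059 normalized counts in scramble to 0.630 and 1.22 in shSP6 cells at day 7, and from 618 and 371 to 35.5 and 25.1 in shFOXO4 cells at day 7. The shSP6 effect at day 7 was below that at day 3 by -7.97 on the log2 scale (limma, adjusted p = 1.09e-07). With shSP6 at day 7 KRT23 reached the filter through scramble alone, so its change there had to be a fall. Of all genes tested, 35.1% were called for this difference between days.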
